A study of Mus musculus with 8 samples.

Results

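Oxidative phosphorylation is carried out by a set of protein complexes, numbered I to V, of the inner mitochondrial membrane, and the genes for their subunits are described here in mouse liver. The genes were chosen by symbol from the deposited count table, as protein-coding genes whose Ensembl identifier maps to a subunit name of complex I (*Nduf*), complex II (*Sdh*), complex III (*Uqcr* and *mt-Cytb*), complex IV (*Cox4* to *Cox8* and *mt-Co*) or complex V (*Atp5* and *mt-Atp*). This gave 97 of the 45706 genes in the table, of which 84 lie in the nucleus and 13 in mitochondrial DNA (mtDNA). By complex, the nuclear genes numbered 37 (I), 4 (II), 8 (III), 18 (IV) and 17 (V). Of the nuclear genes, 10 code for tissue-restricted isoforms or for proteins that are not constitutive subunits, such as *Cox7a2l*, a supercomplex factor. A second annotated *Atp5o* also has a matching name and is not in the table analysed here.

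Livers came from 8 male C57BL/6J mice (strain label C56B6/J), 4 in each group. Mice of the group labelled *Srsf10-kd* (genotype label Srsf10KD) received an AAV2/8 vector by tail vein at 6 weeks of age, in which the chicken β-actin promoter drives GFP and a mirE/shRNA against *Srsf10*, which codes for a splicing factor. *Ctrl* mice (genotype label WT) received a control mirE/shRNA in the same way. All 8 mice started a diet with 60% of calories from fat 4 weeks after the injection and stayed on it for 12 weeks, so both groups carried the vector and the diet. The promoter is not restricted to hepatocytes. RNA was poly(A)-selected, and most mtDNA transcripts are known to carry short tails. The table held 50456404 to 59697241 counts per liver. Levels are given as CPM, the count of a gene relative to the TMM-scaled total of its library, and fold changes as log2 of *Srsf10-kd* over *Ctrl*.

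Electrons from NADH enter the respiratory chain at complex I and electrons from succinate at complex II. They pass through complex III to complex IV, which reduces oxygen, and complex V uses the proton gradient built by complexes I, III and IV to make ATP. Complex II is coded only in the nucleus, whereas the other complexes combine nuclear subunits with subunits made inside the organelle from mtDNA. In the liver this chain oxidizes the NADH and FADH2 that fatty acid oxidation and the TCA cycle deliver.

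A few facts of the whole series bear on these genes. The livers labelled *Srsf10-kd* did not have less *Srsf10* RNA in these counts: it was 31.6, 33.7, 35.3 and 30.9 CPM in *Ctrl* 1 to 4 and 34.3, 34.0, 41.0 and 36.5 CPM in *Srsf10-kd* 1 to 4, a log2 fold change of 0.15 (standard error, SE, 0.10; edgeR adjusted p = 0.378). The paper reports less *Srsf10* RNA by qPCR and less SRSF10 protein by western blot in livers of mice given this vector. Counts do not measure the protein. Of 15491 genes tested, 11 (0.0710%) passed an adjusted p of 0.05 by edgeR, all lower in *Srsf10-kd*. DESeq2 called 819 of 15730 genes (5.21%) and limma-voom with sample quality weights 1814 of 15491 (11.7%). Liver *Srsf10-kd* 3 stood apart, with a first principal component score of 67.4 against -41.8 to 11.5 in the other 7 livers, and it was the highest of the 8 livers for 29.8% of all genes. Fold changes of all genes also followed transcript length, with a Spearman coefficient of -0.504 across 15429 genes, which are not independent replicates. The 12 hepatocyte markers summed to 94555 to 120993 CPM in *Ctrl* and 109252 to 125158 CPM in *Srsf10-kd*, so the tissue label was met in all 8 libraries. In bulk liver, fewer cells of a type and less RNA per cell cannot be told apart.

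The nuclear subunits were higher in *Srsf10-kd* by value in 74 of the 80 that passed the filter on low counts, but none passed the adjusted p. Their median log2 fold change was 0.47, against 0.01 for all genes tested, and 6 of 80 were lower by value. By edgeR, 0 of 80 were called (lowest adjusted p = 0.155), beside 0.0710% of all genes. At an unadjusted p under 0.05, 40 of 80 were higher and 0 lower, where 11.2% of all genes were higher and 10.6% lower. The 40 became 16, 9, 9 and 21 when *Ctrl* 1, *Ctrl* 2, *Ctrl* 4 or *Srsf10-kd* 3 was left out, whereas it could rise with another liver left out. In 18 of 80 every *Srsf10-kd* liver lay above every *Ctrl* liver, against 6.73% of all genes, and the reverse order occurred for 0 of 80, against 7.53%. DESeq2 called 0 nuclear subunits and limma-voom called 3, *Ndufb7*, *Atp5mpl* and *Atp5o* (adjusted p = 0.0492, 0.0489 and 0.0379), beside 5.21% and 11.7% of all genes, so that the nuclear subunits were called less often by value than all genes with both tools. Of the 84, 4 isoforms did not pass the filter: *Cox4i2*, *Cox6a2*, *Cox7b2* and *Cox8c*.

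**Figure D1:**
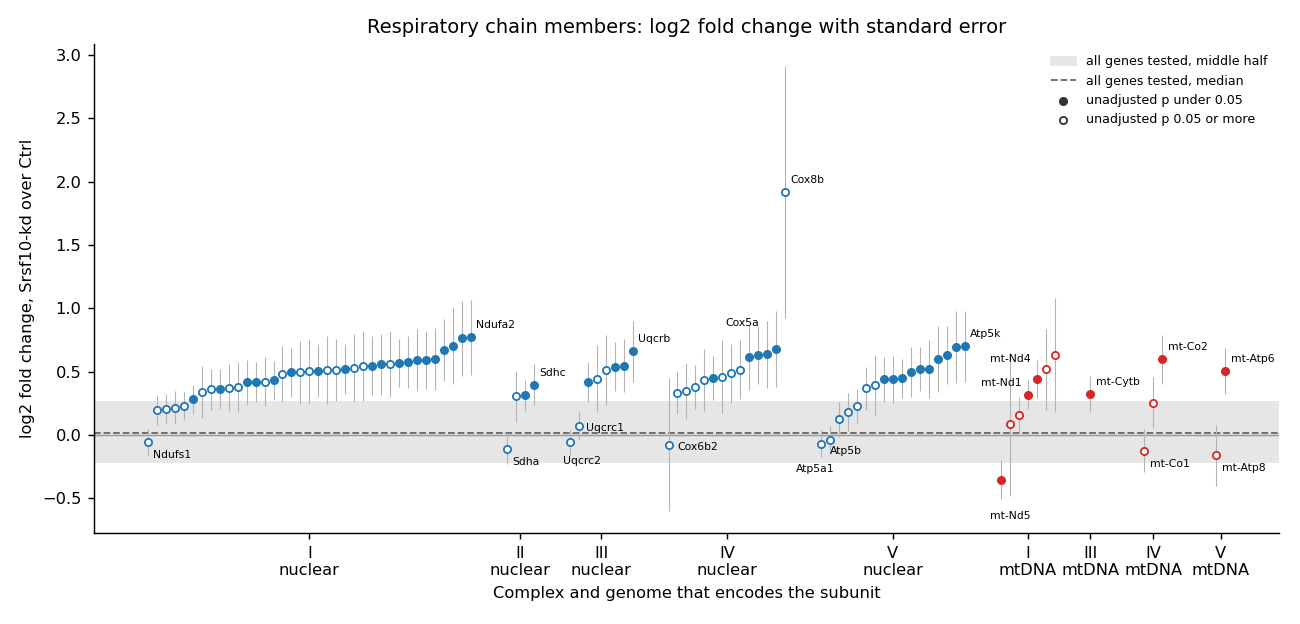
Points show the log2 fold change of each of the 93 tested genes (*Srsf10-kd* over *Ctrl*, n = 4 and 4) with its standard error as a vertical line, ordered within each complex and genome. The shaded band runs from the lower to the upper quartile of all genes tested (-0.22 to 0.26); most nuclear subunits lie above it, while *Ndufs1*, *Sdha*, *Uqcrc2*, *Atp5a1*, *Atp5b* and *mt-Co1* lie within it.

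A single liver and the length of the transcript moved with this difference. Liver *Srsf10-kd* 3 was the highest of the 8 for 71 of the 80 nuclear subunits (88.8%, against 29.8% of all genes), and *Ctrl* 4 was the lowest for 56 (70%, against 20%). Expressed as the deviation of log2 CPM from each gene's mean over the 8 livers, the median nuclear subunit stood at -0.23, -0.23, 0.04 and -0.37 in *Ctrl* 1 to 4 and at -0.07, 0.02, 0.82 and 0.08 in *Srsf10-kd* 1 to 4. Thus *Ctrl* 3 lay above *Srsf10-kd* 1 and 2, and the groups overlapped. Without *Srsf10-kd* 3 the median log2 fold change was 0.21, with 75 of 80 higher by value and 21 higher at an unadjusted p under 0.05. With the trend of each library on transcript length removed it was 0.19, with 70 of 80 higher and 7 at an unadjusted p under 0.05. With both steps it was 0.05, with 58 of 80 higher and 3 at an unadjusted p under 0.05. In these fits 1200, 1327 and 987 of all 15491 genes were higher at that threshold. The share of subunits was thus above that of all genes without *Srsf10-kd* 3, near it with the length trend removed and below it with both steps. Markers of other cell types also moved in that liver. The 6 erythroid markers summed to 800.4 CPM in *Srsf10-kd* 3 and 637 CPM in *Srsf10-kd* 4, beside 292 to 381 CPM in the other 6 livers, and the 9 stellate cell and fibroblast markers to 305 CPM in *Srsf10-kd* 3, beside 180.0 to 221 CPM in the other 7. The sums of the 11 macrophage, 8 endothelial and 9 lymphocyte markers in *Srsf10-kd* 3 (329, 274 and 11.6 CPM) lay within the range of the *Ctrl* livers. No gene of these lists was at 0 in all livers, and the part of other cell types in the difference was not tested.

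**Figure D2:**
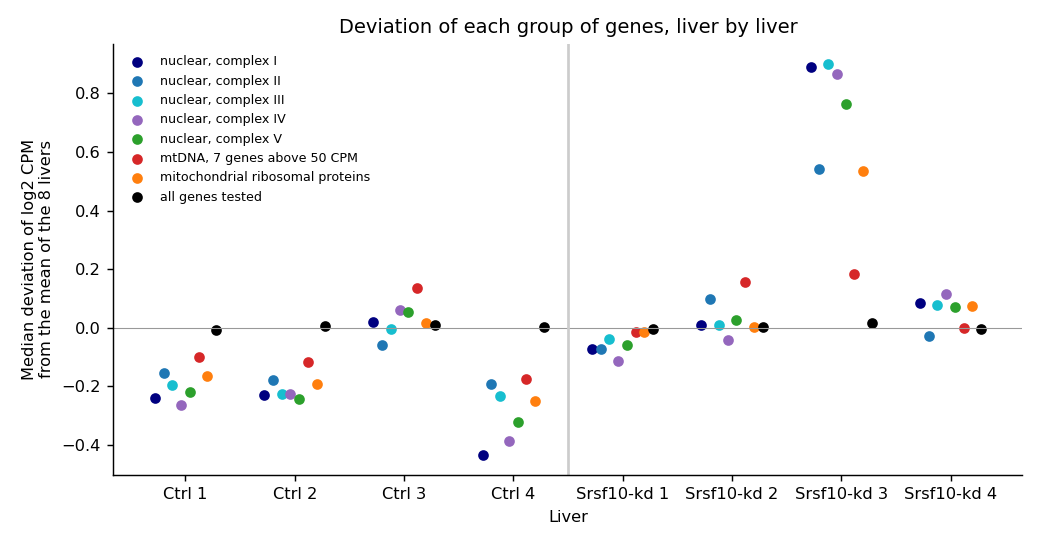
For each liver, points give the median deviation of log2 CPM from the 8-liver mean for the nuclear subunits of complexes I to V, the 7 abundant mtDNA genes, the mitochondrial ribosomal proteins and all genes tested. *Srsf10-kd* 3 stands at 0.54 to 0.90 for the 5 nuclear complexes, while all genes stand at 0.02 there, and *Ctrl* 3 stands above the other *Ctrl* livers in every group of subunits drawn.

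Long and short subunit genes differed in their values. Across the 80 nuclear subunits the Spearman coefficient between transcript length and log2 fold change was -0.596, and it was -0.106 once the trend of each library on length had been removed. The 52 nuclear subunits with transcripts under 1000 bases had a median of 0.52, beside 0.36 for the 2309 genes of that length in the whole table. The 12 of 1000 to 1500 bases had a median of 0.39, beside 0.22 for 1831 genes. The 16 of 1500 bases and over had a median of 0.20, beside -0.07 for 11289 genes. In each class the median of the subunits was thus higher by value than that of all genes. *Srsf10-kd* 3 was the highest liver for 94.2% of the short, all 12 of the middle and 62.5% of the long subunits, beside 55.2%, 52.6% and 20.9% of all genes of those lengths.

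**Figure D3:**
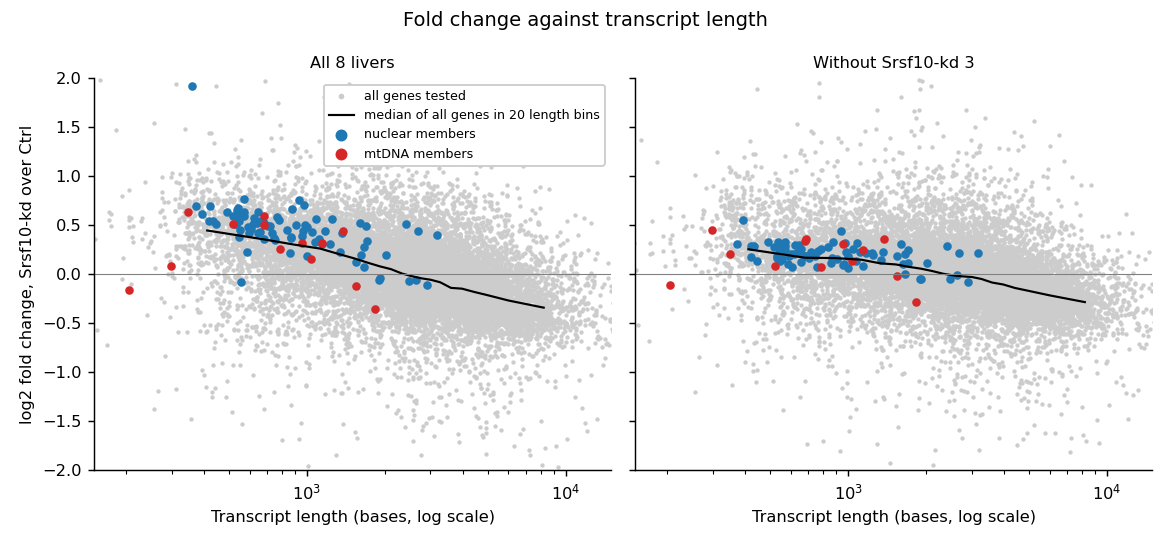
The log2 fold change of every gene with a known transcript length is plotted against that length (log scale), for all 8 livers and without *Srsf10-kd* 3; the line is the median of all genes in 20 length bins, and 49 and 34 genes beyond a log2 fold change of 2 in either direction are not drawn. Nuclear subunits (blue) crowd at short lengths above the line with all livers, and lie closer to it without *Srsf10-kd* 3.

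In complex I, 36 of 37 nuclear subunits were higher by value, at a median of 0.50. At an unadjusted p under 0.05, 19 were so, beside 11.2% of all genes and 27.4% of all genes under 1000 bases. The 7 nuclear core subunits, which carry the flavin and the iron-sulfur clusters, had a median of 0.37, and the 30 others, most of which surround the core, a median of 0.52. The core transcripts are longer (median 1623 bases, against 718), and the medians were 0.18 and 0.23 with the length trend removed, 0.21 and 0.21 without *Srsf10-kd* 3 and 0.10 and 0.07 with both, so the order of these parts was not kept. *Ndufs1* (ENSMUSG00000025968, chromosome 1, 63143596 to 63176833), the largest iron-sulfur subunit, was 148, 137, 138 and 151 CPM in *Ctrl* and 139, 150, 124 and 139 CPM in *Srsf10-kd*. These groups overlapped, with a log2 fold change of -0.06 (SE 0.10, exact permutation p = 0.6). *Ndufb5* (ENSMUSG00000027673, chromosome 3, 32736990 to 32751566), an accessory subunit of the membrane arm, was 75.4, 68.7, 67.8 and 69.8 CPM in *Ctrl* and 82.4, 88.1, 154 and 93 CPM in *Srsf10-kd*. Here every *Srsf10-kd* liver was higher, and the log2 fold change of 0.57 (SE 0.19) had an adjusted p of 0.155 by edgeR and the smallest exact permutation p that 4 against 4 livers can give, 0.0286. Without *Srsf10-kd* 3 it was 0.32. The exons of *Ndufb5* overlap those of *Mrpl47* over 12.3% of their length.

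*Ndufb7*, another accessory subunit, was 50.9, 47.9, 54.8 and 48.8 CPM in *Ctrl* and 59.4, 60.4, 115 and 67 CPM in *Srsf10-kd*, again with no overlap. Its log2 fold change was 0.58 with all livers, 0.30 without *Srsf10-kd* 3 and 0.25 with the length trend removed. *Ndufa2* had the highest log2 fold change of the complex, 0.77 (SE 0.29, adjusted p = 0.187), and it was 53.6 to 72.6 CPM in *Ctrl* and 76.0, 76.7, 199 and 93 CPM in *Srsf10-kd*. It was 0.33 without *Srsf10-kd* 3 and 0.12 with the length trend also removed. Per kilobase of transcript *Ndufa4* was the most abundant nuclear subunit of complex I, at 534 CPM per kilobase in *Ctrl* and 762 in *Srsf10-kd*. This protein was first assigned to complex I and has since been found in complex IV. Its level was 263, 295, 363 and 212 CPM in *Ctrl* and 300, 302, 662 and 355 CPM in *Srsf10-kd*, so the groups overlapped (exact permutation p = 0.229). Its paralogue *Ndufa4l2*, which hypoxia induces, was near 1 CPM in all livers (0.527 to 0.816 CPM in *Ctrl*, 0.75 to 1.71 CPM in *Srsf10-kd*).

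Complex II had 3 of 4 subunits higher by value. Its catalytic flavoprotein *Sdha* (ENSMUSG00000021577, chromosome 13, 74322254 to 74350280) was 555, 525, 462 and 460 CPM in *Ctrl* and 445, 533, 435 and 445 CPM in *Srsf10-kd*, which overlapped (log2 fold change -0.11, SE 0.12). The iron-sulfur subunit *Sdhb* had a mean of 160 CPM per kilobase in *Ctrl* and 198 in *Srsf10-kd*, beside 173 and 160 for *Sdha*. Only the order of these means differed between the groups, and the transcripts measure 1142 and 2900 bases. *Sdhb* was 228 CPM in *Ctrl* 3 and 178.5, 217, 323 and 184 CPM in *Srsf10-kd*, so its groups overlapped. Its log2 fold change was 0.31 (SE 0.20, adjusted p = 0.374). The membrane anchors *Sdhc* and *Sdhd*, which hold the ubiquinone site, did not overlap between groups. *Sdhc* was 151 to 181 CPM in *Ctrl* and 185, 198, 297.5 and 196 CPM in *Srsf10-kd*. *Sdhd* (ENSMUSG00000000171, chromosome 9, 50596357 to 50603812) was 192, 171, 188 and 205 CPM in *Ctrl* and 210, 216, 282 and 232 CPM in *Srsf10-kd*. Their log2 fold changes were 0.40 and 0.31 (adjusted p = 0.199 and 0.194), and both 0.22 without *Srsf10-kd* 3. With the length trend removed *Sdhc*, whose transcript measures 3171 bases, was 0.50.

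In complex III, 7 of 8 were higher by value. The 2 core proteins *Uqcrc1* and *Uqcrc2*, which face the matrix, had log2 fold changes of 0.07 (-0.03 with the length trend removed) and -0.06, while the 5 small subunits ranged from 0.44 to 0.66 and the Rieske iron-sulfur protein *Uqcrfs1* was 0.42. The hinge protein *Uqcrh* was the most abundant per kilobase over all livers, though not in *Ctrl*, with 128 to 138 CPM in *Ctrl* and 155, 147, 300.5 and 175 CPM in *Srsf10-kd*. *Uqcrb* (ENSMUSG00000021520, chromosome 13, 66900617 to 66905378), which lies near the ubiquinone-reducing site, was 113, 108, 129 and 98 CPM in *Ctrl* and 134, 140, 288 and 148 CPM in *Srsf10-kd*. It had the highest log2 fold change of the complex, 0.66 (SE 0.24, adjusted p = 0.173), and 16.7% of its 75-base stretches occur in other annotated transcripts. *Uqcr10* was 71.8 to 82.5 CPM in *Ctrl* and 90.2, 93.4, 169 and 101 CPM in *Srsf10-kd*. In *Uqcrh*, *Uqcrb* and *Uqcr10* the *Srsf10-kd* livers all lay above the *Ctrl* livers, with *Srsf10-kd* 3 far above the other 3. Without that liver their log2 fold changes were 0.26, 0.33 and 0.28.

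Of the nuclear genes of complex IV, 14 of 18 were tested and 13 of these were higher by value. At an unadjusted p under 0.05, 5 (35.7%) were so, beside 11.2% of all genes and 27.4% of all genes under 1000 bases. *Cox5a* (ENSMUSG00000000088, chromosome 9, 57521274 to 57532426), a constitutive subunit, was 150, 132, 145 and 130.5 CPM in *Ctrl* and 169, 172, 349 and 175 CPM in *Srsf10-kd*. The groups did not overlap, and the log2 fold change was 0.63 (SE 0.23, adjusted p = 0.175) with all livers, 0.30 without *Srsf10-kd* 3 and 0.30 with the length trend removed. *Cox4i1*, the most abundant per kilobase, was 354, 377, 475 and 343 CPM in *Ctrl* and 378, 403, 748 and 442 CPM in *Srsf10-kd*, and the groups overlapped (log2 fold change 0.35, SE 0.22). *Cox8a* and *Cox6a1*, the forms used in liver, had log2 fold changes of 0.45 and 0.64, both 0.25 without *Srsf10-kd* 3 and both 0.04 with the length trend also removed. Their groups overlapped in both cases, as *Ctrl* 1 of *Cox8a* (150 CPM) and *Ctrl* 3 of *Cox6a1* (208 CPM) lay above *Srsf10-kd* 1 (141 and 203 CPM).

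Isoforms of complex IV that are known from muscle, lung, brown fat or testis were at or near 0 in these livers. *Cox4i2* was at most 0.154 CPM and *Cox6a2* at most 0.281 CPM, whereas *Cox7b2* and *Cox8c* had 0 counts in all 8 livers. *Cox7a1*, the heart and muscle counterpart of *Cox7a2*, was 0.755 to 1.69 CPM in *Ctrl* and 1.45 to 2.3 CPM in *Srsf10-kd*, beside 108 to 158 and 124 to 271 CPM of *Cox7a2*. *Cox8b* (ENSMUSG00000025488, chromosome 7, 140898945 to 140900446), which brown fat and muscle use in place of *Cox8a*, was 0.0694, 0.18, 0.179 and 0.158 CPM in *Ctrl* and 0.227, 0.0769, 0.0584 and 1.85 CPM in *Srsf10-kd*. Its log2 fold change of 1.92 (SE 0.99, adjusted p = 0.273) rested on *Srsf10-kd* 4, without which it was -0.24. In that same liver *Ucp1*, the uncoupling protein of brown fat, was 3.24 CPM against 0 to 0.491 CPM in the other 7, and the adipocyte marker *Adipoq* was 2.21 CPM against 0.0521 to 0.597 CPM. The part of adipose RNA in the *Cox8b* value was not tested. The 6 adipocyte markers summed to 0.65 to 11.5 CPM in *Ctrl* and 1.1 to 31.8 CPM in *Srsf10-kd*, with *Cfd* taking 31.5 CPM of the highest, which belonged to *Srsf10-kd* 3 and not to *Srsf10-kd* 4 (13.8 CPM). In *Srsf10-kd* 4 the markers *Adipoq*, *Plin1*, *Retn* and *Ucp1* were the highest of the 8 livers, whereas *Cfd* (6.34 CPM) and *Lep* (0.0891 CPM) were not. The 11 striated muscle markers summed to 0.382 to 31.7 CPM in *Ctrl*, highest in *Ctrl* 4, and to 0.253 to 6.64 CPM in *Srsf10-kd*.

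Complex V had 15 of 17 higher by value, at a median of 0.44. At an unadjusted p under 0.05, 10 were so, beside 11.2% of all genes and 27.4% of all genes under 1000 bases. The 2 subunits of the catalytic head, *Atp5a1* (α) and *Atp5b* (β), were the exceptions. *Atp5b* (ENSMUSG00000025393, chromosome 10, 128083273 to 128090391), the most abundant of the complex per kilobase over all livers and in *Ctrl*, though not in *Srsf10-kd*, was 1159, 1116, 1283 and 1176 CPM in *Ctrl* and 1119, 1192, 1180.0 and 1123 CPM in *Srsf10-kd*. *Atp5a1* was 1008, 945, 1038 and 1004 CPM in *Ctrl* and 936, 1033, 923 and 918 CPM in *Srsf10-kd*. The groups overlapped for both, and the log2 fold changes were -0.04 and -0.07 (SE 0.11 and 0.10). The 3 genes of the central stalk, *Atp5c1*, *Atp5d* and *Atp5e*, ranged from 0.18 to 0.70, the 4 of the peripheral stalk from 0.37 to 0.52 and the 3 of the proton-carrying c-ring from 0.23 to 0.50.

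*Atp5f1* (ENSMUSG00000000563, chromosome 3, 105942698 to 105960099), subunit b of the peripheral stalk, was 257 to 282 CPM in *Ctrl* and 322, 339, 554 and 346 CPM in *Srsf10-kd*, with no overlap. Its log2 fold change was 0.52 (SE 0.17, adjusted p = 0.157) and 0.30 without *Srsf10-kd* 3. *Atp5o*, the subunit that joins the stalk to the head, was 112 to 131 CPM in *Ctrl* and 145, 146, 226 and 159 CPM in *Srsf10-kd*, also with no overlap (log2 fold change 0.45, SE 0.15, and 0.28 without *Srsf10-kd* 3). Exons of other genes, among them the second *Atp5o*, cover 47.9% of its length, so its counts are uncertain. *Atp5k*, a small membrane subunit, had the highest log2 fold change of the complex, 0.70 (SE 0.28), with 55.2 to 91.7 CPM in *Ctrl* and 89.1, 90.5, 199 and 88 CPM in *Srsf10-kd*. *Ctrl* 3 lay above all *Srsf10-kd* livers but the third, and the log2 fold change was 0.07 with that liver left out and the length trend removed.

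Summed per kilobase, the nuclear subunits of complex I gave 3119 to 4291 CPM per kilobase in *Ctrl* and 3915, 4141, 7734 and 4490 in *Srsf10-kd*. Those of complex II gave 510 to 569 in *Ctrl* and 539, 612, 756 and 564 in *Srsf10-kd*. The sums of complexes III, IV and V in *Srsf10-kd* 3 were 3186, 5853 and 6360, against at most 1860, 3214 and 4057 in any other liver. Sums depend on the transcript length taken for each gene, which differs between annotated isoforms of genes such as *Ndufb2* and *Atp5g1*. As a share of all counts, the nuclear subunits took 1.14%, 1.14%, 1.28% and 1.04% in *Ctrl* and 1.21%, 1.31%, 1.88% and 1.30% in *Srsf10-kd*.

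Promoters of nuclear subunit genes are known for binding sites of NRF1, of the ETS factor GABP (also called NRF2) and of YY1, which are shown here because these factors set the nuclear part of the respiratory chain as a group. RefSeq promoters (GRCm38.p6), from 250 bases before to 50 bases after each start, were at hand for 68 of the 84 genes. The NRF1 motif (GCGC, any 2 bases, GCGC) occurred in 19 of their 73 promoters (26.0%), against 6.23% of all 32851 promoters. The ETS motif (CCGGAAG) occurred in 16 (21.9%, against 8.86%). The YY1 motif (AAN followed by ATGGCGGC) occurred in 4 (5.48%, against 0.986%). Both strands were searched, and no matches of different motifs overlapped in these promoters. A match is a run of letters, not a measured site. The median log2 fold change was 0.48 for the 33 tested genes with any of the 3 motifs and 0.49 for the 34 without. Stretches before the start of 4 named genes are given 5′ to 3′ on the strand of the gene, with matches in capitals. They come from a pair of complex II genes with log2 fold changes of opposite sign by value, and from 1 gene each of complexes III and IV.
Sdha, chr13:74350281-74350358, minus strand: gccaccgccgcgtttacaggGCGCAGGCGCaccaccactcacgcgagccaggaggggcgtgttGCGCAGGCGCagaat
Sdhd, chr9:50603869-50603948, minus strand: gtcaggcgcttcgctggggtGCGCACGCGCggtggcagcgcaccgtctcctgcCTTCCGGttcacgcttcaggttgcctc
Uqcrh, chr4:116075072-116075100, minus strand: actacgaggagtatgccgcaCTTCCGGcc
Cox6a1, chr5:115349046-115349140, minus strand: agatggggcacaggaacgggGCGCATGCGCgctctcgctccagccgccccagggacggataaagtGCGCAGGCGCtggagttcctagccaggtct

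Both complex II genes hold NRF1 matches in these stretches, and *Sdhd* an ETS match as well, with log2 fold changes of -0.11 for *Sdha* and 0.31 for *Sdhd*. Neither was called (adjusted p = 0.589 and 0.194 by edgeR), their transcripts measure 2900 and 1231 bases, and a difference between them was not tested. *Uqcrh*, with an ETS match on the opposite strand, was 0.55, and *Cox6a1*, with a pair of NRF1 matches here and an ETS match elsewhere in its promoter, was 0.64. The mitochondrial biogenesis regulators themselves are described with the companion lists.

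The 13 mtDNA genes form one block on the mitochondrial chromosome (M in GRCm38) from 2751 to 15288, and all but *mt-Nd6* are read from the same strand. They were cut here into genes counted at high and at low level, since the table held 7 of them above 50 CPM in every liver and 6 at 20.4 CPM or less. The abundant ones were *mt-Nd1*, *mt-Nd2*, *mt-Nd4*, *mt-Nd5*, *mt-Nd6*, *mt-Cytb* and *mt-Co1*. Per kilobase *mt-Co1* gave 11185 CPM in *Ctrl*, *mt-Nd2* 7410, *mt-Cytb* 7149, *mt-Nd1* 5464, *mt-Nd5* 2552, *mt-Nd4* 2323 and *mt-Nd6* 246.

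The low counts of the other mtDNA genes moved with sequence shared with a nuclear copy. *mt-Nd3*, *mt-Nd4l*, *mt-Co2*, *mt-Co3* and *mt-Atp6* share 97.8% to 99.9% of their 75-base stretches with unprocessed pseudogenes on chromosome 1 between 24612407 and 24615565. Their levels ranged over the 8 livers from 0.0195 CPM (*mt-Nd4l*) to 20.4 CPM (*mt-Co2*), and the matching pseudogenes had 0.0973 to 19.9 CPM. *mt-Nd4* shares 61.5% with *Gm28439* and *mt-Co1* 39.8% with *Gm29216*, and these kept 3007 to 5122 and 12081 to 19593 CPM. *mt-Nd1*, *mt-Nd6* and *mt-Cytb* share 0% with other annotated transcripts. A stretch found in both copies cannot be assigned to one of them, and the part of this in their low counts was not tested. *mt-Atp8* is outside this order, with 0% shared and 0.267 to 0.451 CPM, but only annotated transcripts were searched. It lies between *mt-Co2* and *mt-Atp6* in mtDNA. On chromosome 1 the copy of *mt-Atp6* ends at 24614651 and that of *mt-Co2* starts at 24614885, and the bases between were not searched. The last 43 bases of *mt-Atp8* (M 7927 to 7969) are also the start of *mt-Atp6*, which is shown because reads over it belong to both genes.
mt-Atp8 and mt-Atp6, chrM:7927-7969, plus strand: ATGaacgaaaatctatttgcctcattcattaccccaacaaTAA

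The capitals mark the start codon of *mt-Atp6* and the stop codon of *mt-Atp8*. Another overlap of 7 bases joins *mt-Nd4l* and *mt-Nd4*. Values of the 6 genes with low counts, and of *mt-Nd4* and *mt-Co1*, are therefore given as counts on the annotated gene and not as the level of the transcript.

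**Figure D4:**
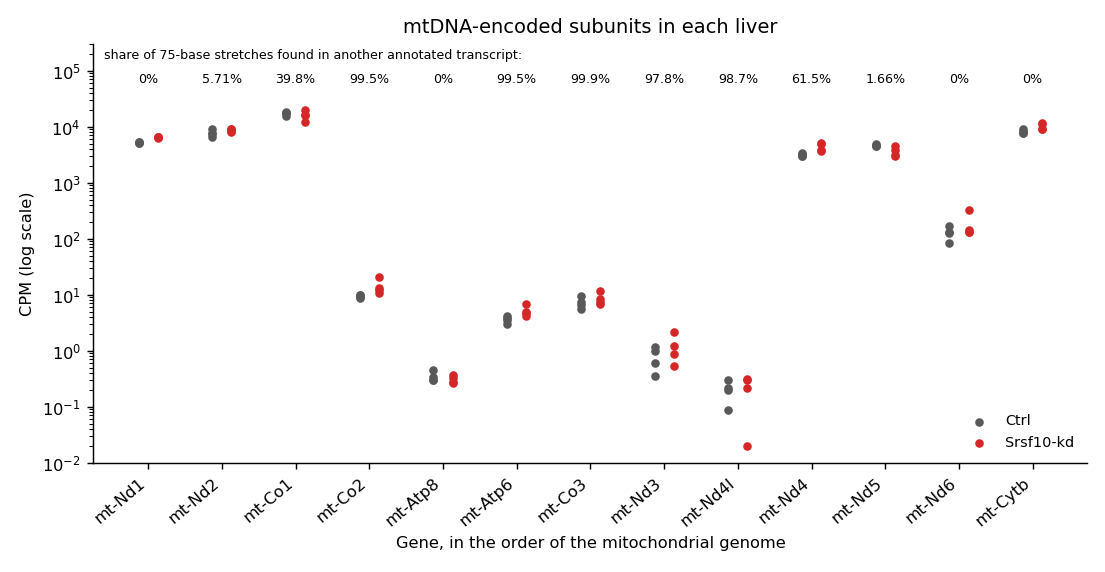
Points give the CPM (log scale) of the 13 mtDNA genes in each liver, in the order of the mitochondrial genome, with the share of each gene's 75-base stretches that another annotated transcript holds printed above. Genes at 97.8% and above lie at 20.4 CPM or less, genes at 61.5% and below lie above 50 CPM, and *mt-Atp8*, at 0%, is the exception. Copies without annotation were not searched.

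By edgeR 0 of the 13 mtDNA genes were called (lowest adjusted p = 0.151), and DESeq2 called *mt-Nd1* and *mt-Nd4* (adjusted p = 0.00103 and 0.0498). Limma-voom called *mt-Nd1* alone (adjusted p = 0.0428). These counts stand beside 5.21% of all genes with DESeq2 and 11.7% with limma-voom. By value 10 of 13 were higher and 3 lower, and the median was 0.32. At an unadjusted p under 0.05, 5 were higher and 1 lower, beside 11.2% and 10.6% of all genes (3 higher without *Ctrl* 4), and 5 had groups that did not overlap, all higher, beside 6.73%. With the length trend removed the median was 0.10 and none passed an unadjusted p of 0.05 as higher. Without *Srsf10-kd* 3 it was 0.21.

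*mt-Nd1* (ENSMUSG00000064341, chromosome M, 2751 to 3707), a core membrane subunit of complex I, varied little within each group. It was 5258, 5375, 5114 and 5171 CPM in *Ctrl* and 6436, 6354, 6619 and 6646 CPM in *Srsf10-kd*. The groups did not overlap and *Srsf10-kd* 3 did not stand apart in it. The means were 5229 ± 113.7 and 6514 ± 141.3 CPM (SD, n = 4 each), and the log2 fold change was 0.32 (SE 0.11, adjusted p = 0.172, edgeR), 0.31 without *Srsf10-kd* 3 and 0.10 with the length trend removed. *mt-Nd4*, which also sits in the proton-pumping arm, was 3460, 3288, 3007 and 3053 CPM in *Ctrl* and 3676, 4850.4, 5122 and 3775 CPM in *Srsf10-kd*, without overlap (log2 fold change 0.44, SE 0.15, adjusted p = 0.159). *mt-Cytb*, the single mtDNA subunit of complex III, was 8920, 7746, 7839 and 8210 CPM in *Ctrl* and 9050, 11034, 11716 and 9102 CPM in *Srsf10-kd*. Here too every *Srsf10-kd* liver was higher (log2 fold change 0.32, SE 0.14, adjusted p = 0.227). For *mt-Nd4* and *mt-Cytb* the log2 fold changes were 0.36 and 0.25 without *Srsf10-kd* 3, and 0.29 and 0.13 with the length trend removed.

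*mt-Nd5* and *mt-Co1* were lower by value. *mt-Nd5* (ENSMUSG00000064367, chromosome M, 11742 to 13565), the longest mtDNA gene, was 4539, 4774, 4491 and 4812 CPM in *Ctrl* and 3850, 4557, 3055 and 3097 CPM in *Srsf10-kd*, so *Srsf10-kd* 2 overlapped with the *Ctrl* group. For this gene the log2 fold change was -0.35 (SE 0.16, adjusted p = 0.221, exact permutation p = 0.0857) and -0.42 with the length trend removed. *mt-Co1*, the catalytic subunit of complex IV, was 17361, 17727, 18464 and 15573 CPM in *Ctrl* and 15879, 19593, 12081 and 15847 CPM in *Srsf10-kd* (log2 fold change -0.12, SE 0.17). The groups overlapped, and *Srsf10-kd* 3 was the lowest of all livers here, the opposite of its place in most nuclear subunits. *mt-Nd2* was 6633 to 9004 CPM in *Ctrl* and 8117 to 9010 CPM in *Srsf10-kd* (log2 fold change 0.16, exact permutation p = 0.143).

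*mt-Nd6*, which is read from the other strand and overlaps the end of *mt-Nd5*, was 127, 130.2, 170.0 and 84.1 CPM in *Ctrl* and 131, 144, 325 and 134 CPM in *Srsf10-kd*. Only *Srsf10-kd* 3 lay above *Ctrl* 3, and the log2 fold change was 0.52 with all livers (SE 0.32) and 0.09 without that liver. On the genes with low counts, *mt-Co2* was 8.57 to 9.79 CPM in *Ctrl* and 10.6, 13.3, 20.4 and 12.0 CPM in *Srsf10-kd*, and *mt-Atp6* was 2.98 to 4.16 and 4.2 to 6.87 CPM. Both did not overlap between groups (log2 fold change 0.60 and 0.51, adjusted p = 0.151 and 0.170, and 0.36 and 0.34 without *Srsf10-kd* 3). *mt-Co3*, *mt-Nd3*, *mt-Nd4l* and *mt-Atp8* overlapped, with log2 fold changes of 0.25, 0.63, 0.08 and -0.16, which were 0.08, 0.21, 0.45 and -0.11 without *Srsf10-kd* 3.

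In all, the mtDNA genes took 4.71%, 4.81%, 4.79% and 4.31% of the counts in *Ctrl* and 4.86%, 5.65%, 4.51% and 4.69% in *Srsf10-kd*. The means were 4.65 ± 0.233% and 4.93 ± 0.501% (SD, n = 4 each), a difference smaller than the SD of *Srsf10-kd*. In *Srsf10-kd* 3 the nuclear share was the highest of the 8 livers at 1.88% and the mtDNA share the second lowest at 4.51%.

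Other mitochondrial genes were compared as lists written from general knowledge, and their counts at an unadjusted p under 0.05 stand beside 11.2% of all genes higher and 10.6% lower. Mitochondrial ribosomal proteins, which translate the mtDNA transcripts, were like the nuclear subunits by value: 77 were tested, the median log2 fold change was 0.31, and 29 were higher and 0 lower at an unadjusted p under 0.05, with 0 called. *Mrpl35* was 20.6 to 22.5 CPM in *Ctrl* and 25.1 to 35.1 CPM in *Srsf10-kd* (log2 fold change 0.45, SE 0.12, adjusted p = 0.126), and *Mrpl51* was 36.2 to 37.9 and 42.3 to 63.3 CPM (0.43, adjusted p = 0.138). The log2 fold changes of these 2 genes were 0.59 and 0.55 with the length trend removed. The median of the whole list was instead 0.14 with the length trend removed, 0.15 without *Srsf10-kd* 3 and 0.05 with both. In these fits 17, 19 and 11 of the 77 were higher at an unadjusted p under 0.05, beside 1327, 1200 and 987 of all 15491 genes. Assembly factors of the complexes had a median of 0.21 over 53 tested, with 12 higher and 1 lower at an unadjusted p under 0.05 and 0 called. That median was 0.09 without *Srsf10-kd* 3 and 0.0042 with the length trend also removed. The copper chaperone *Sco2*, needed to build complex IV, was 10.6, 8.57, 9.49 and 10.2 CPM in *Ctrl* and 14.1, 13, 21.5 and 15.2 CPM in *Srsf10-kd*, without overlap. Its log2 fold change was 0.71 (SE 0.16, adjusted p = 0.115 by edgeR and 0.00665 by DESeq2), and 0.42 without *Srsf10-kd* 3 and with the length trend removed. *Cox20*, a chaperone of *mt-Co2*, was 15.1 to 20.1 CPM in *Ctrl* and 22.5 to 39.1 CPM in *Srsf10-kd* (log2 fold change 0.64, adjusted p = 0.134 by edgeR and 0.0407 by DESeq2).

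The TCA cycle enzymes, which feed the chain, had a median log2 fold change of -0.04 over 14 tested. *Ogdh* was -0.49 (adjusted p = 0.260). Genes of mtDNA transcription, replication and RNA stability had a median of 0.05 over 29 tested, with 3 higher and 0 lower at an unadjusted p under 0.05, a share of higher genes near that of all genes, led by *Trmt10c* (0.34, adjusted p = 0.144) and *Fastkd5* (0.56, adjusted p = 0.190). Membrane and carrier proteins had a median of 0.08 over 18 tested, with 3 higher and 1 lower. The fusion protein *Opa1* was 100.5 to 119 CPM in *Ctrl* and 74.8 to 97.7 CPM in *Srsf10-kd* (log2 fold change -0.31, adjusted p = 0.178), and the ADP/ATP carrier *Slc25a4* was 0.43 (adjusted p = 0.189). Of the subunits and electron carriers whose names lie outside the rule, *Ndufab1*, the mitochondrial acyl carrier protein, was 0.35 (adjusted p = 0.229) and cytochrome c (*Cycs*) was 0.10 (adjusted p = 0.683), with 0 of 3 at an unadjusted p under 0.05.

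Regulators of mitochondrial biogenesis had a median of -0.10 over 11 tested, with 0 higher and 3 lower at an unadjusted p under 0.05. One of these was called, *Ppara*, a receptor that controls fatty acid oxidation genes in liver. *Ppara* was 177, 208, 168 and 234 CPM in *Ctrl* and 88.4, 84.6, 77.8 and 82.3 CPM in *Srsf10-kd*. It fell by 1.24 on the log2 scale (SE 0.13), and the groups did not overlap. The adjusted p was 0.0166 by edgeR, 1.74e-15 by DESeq2 and 0.00164 by limma-voom. By edgeR it was 0.0182 without *Srsf10-kd* 3 and 0.0191 with the length trend removed. It was 0.0536 to 0.106 by edgeR when *Ctrl* 2 or *Srsf10-kd* 1, 2 or 4 was left out. *Gabpb2*, which codes for a β subunit of GABP, was 35.9, 34.0, 27.0 and 34.4 CPM in *Ctrl* and 21.1, 24.5, 16 and 22 CPM in *Srsf10-kd* (log2 fold change -0.65, adjusted p = 0.113 by edgeR and 0.00814 by DESeq2). The α subunit *Gabpa* had a log2 fold change of -0.32 (adjusted p = 0.181 by edgeR). With the length trend removed *Gabpb2* was -0.32.

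**Figure D5:**
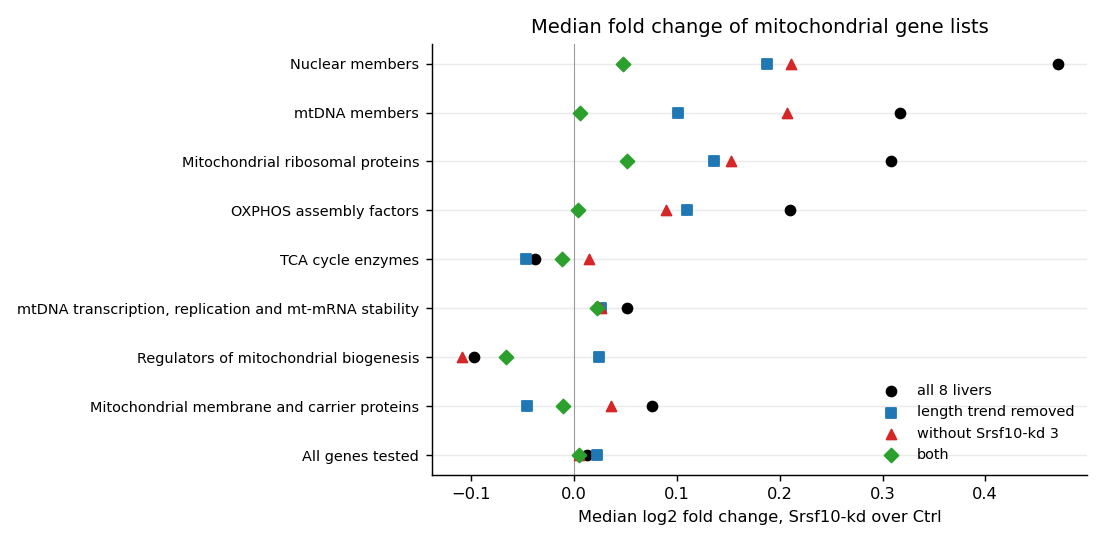
Points give the median log2 fold change (*Srsf10-kd* over *Ctrl*) of 9 groups of genes with all 8 livers (circles), with the length trend removed (squares), without *Srsf10-kd* 3 (triangles) and with both (diamonds). The nuclear subunits go from 0.47 with all livers to 0.05 with both, the ribosomal proteins from 0.31 to 0.05 and the mtDNA genes from 0.32 to 0.01, and all genes tested lie between 0.004 and 0.02 throughout.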

How the data were processed

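Liver RNA of 8 mice (4 labelled *Srsf10-kd*, 4 *Ctrl*) was analysed. Per the authors, libraries were directional and poly(A)-selected and were read from both ends. STAR (2.7.7a, per the labels) placed the reads on GRCm38, and its counts per gene were deposited as they came, not normalized. The annotation release and the strand column are not given in the sources used here, so genes whose exons overlap on either strand are uncertain (29 of the 84 nuclear genes), as are those that share 75-base stretches with other transcripts (16 share 10% or more). No column duplicated another, as chi-square divided by its degrees of freedom was at least 51.0 over 28 pairs of livers. Whether the mice were littermates is not stated, so p-values measure the spread between these livers.

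Counts were analysed in R 4.3.3 with edgeR 4.0.16 (TMM, filterByExpr, quasi-likelihood test on group, two-sided, Benjamini-Hochberg over 15491 genes, threshold 0.05). DESeq2 1.42.0, the method the authors state, and limma-voom (limma 3.58.1) were alternatives. Single genes also had an exact permutation test over the 70 assignments of livers (smallest p 0.0286). Log2 levels used a prior count of 2. The length and GC corrections removed each library's lowess trend (span 0.5) by an offset. Positions, symbols and lengths (median of the principal coding transcripts) came from GENCODE M21, which holds 45143 of the 45706 identifiers. Sums over the members, liver by liver, carry no p-value. Promoters came from RefSeq on GRCm38.p6, and 16 nuclear genes had no entry. The tests were checked on simulated data.

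The genes named are all mtDNA genes; per complex the most abundant nuclear gene per kilobase, the pair with the smallest p and the highest and lowest log2 fold change; the isoform pairs; *Srsf10*; *Ppara*; and in each companion list the pair with the smallest p. A gene of the companion lists is not reported here. *Uqcrc1*, the adipocyte markers and *Gabpa* were added after their values were seen. The members and lists were chosen with earlier results of these data known. The combination of leaving out *Srsf10-kd* 3 and removing the length trend, and the counts at an unadjusted p, were added after the data were seen.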

Additional observations from a re-analysis of the deposited data

Results flagged for a closer look

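In groups of 4 livers, a liver was set apart when its gap to the nearest other liver passed Dixon's 95% critical share of the group's range. Of 106 such groups (named genes, shares and sums), 21 held one. Chance sets a liver apart in about 1 group in 20, but these groups are not separate tests, since the sums and shares are made from the same genes and 17 of the 21 name the same liver, *Srsf10-kd* 3. It stood above the other 3 *Srsf10-kd* livers with 662 CPM of *Ndufa4*, 154 CPM of *Ndufb5*, 115 CPM of *Ndufb7* and 199 CPM of *Ndufa2* in complex I. In complexes II and III it stood apart with 297.5 CPM of *Sdhc*, 169 CPM of *Uqcr10* and 288 CPM of *Uqcrb*. In complexes IV and V it did so with 349 CPM of *Cox5a*, 493 CPM of *Cox6a1*, 554 CPM of *Atp5f1* and 199 CPM of *Atp5k*. The same held for *mt-Nd6* at 325 CPM, against 131 to 144 CPM in the other 3, for the nuclear share of counts at 1.88%, and for the sums of nuclear complexes I, III, IV and V at 7734, 3186, 5853 and 6360 CPM per kilobase.

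Liver *Srsf10-kd* 2 stood above the other 3 in a different set of genes, the long subunits *Sdha* (533 CPM against 435 to 445), *Uqcrc2* (262 CPM against 244 to 246) and *Atp5a1* (1033 CPM against 918 to 936). Liver *Srsf10-kd* 4 stood apart in *Cox8b* at 1.85 CPM, against 0.0584 to 0.227 CPM.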

How the results depend on the processing

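Over 22 alternatives, 41 of the 55 named genes with a log2 fold change kept its sign in all of them. The number of nuclear genes called was 3 with limma-voom and 0 otherwise, and that of mtDNA genes was 2 with DESeq2, 1 with limma-voom and 0 otherwise. The number of nuclear genes higher at an unadjusted p under 0.05 (40) was 7 with the length trend removed, 3 with *Srsf10-kd* 3 also left out, and 9 to 56 with 1 liver left out. For mtDNA genes (5) it was 0, 0 and 3 to 5. The nuclear median was 0.048 with both steps, and the mtDNA median 0.10 with the length trend removed and 0.006 with both. The labels do not say whether livers of the same replicate number are paired, and this was not settled here. Same-numbered deviations from the group means had correlations of -0.176, 0.213, 0.265 and 0.217 for numbers 1 to 4. With the replicate number as a block, 0 nuclear and 0 mtDNA genes were called, 65 nuclear genes were higher at an unadjusted p under 0.05, and the nuclear median was 0.43. Scaling by library size alone or without the mitochondrial chromosome turned no named gene.

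Some log2 fold changes turned sign, and the cause was not tested. Not all of them were small with all livers: *Cox8b* was 1.92, *mt-Nd3* 0.63, *mt-Nd6* 0.52, *Ndufa4* 0.51 and *Cox7a2* 0.43. With the length trend removed, *mt-Nd2* was -0.039, *mt-Nd4l* -0.26 and *mt-Co3* -0.0043. With *Srsf10-kd* 3 also left out, *mt-Nd3* was -0.039, *mt-Nd6* -0.11, *mt-Co3* -0.076, *Ndufa4* -0.032, *Ndufs1* 0.0061, *Sdhb* -0.031, *Cox4i1* -0.088 and *Cox7a2* -0.0595. With 1 liver left out, *mt-Nd4l* ranged from -0.16 (without *Ctrl* 4) to 0.45 (without *Srsf10-kd* 3), turning also without *Srsf10-kd* 1 (-0.13) and 2 (-0.15). *Cox6b2* ranged from -0.77 (without *Srsf10-kd* 4) to 0.21 (without *Ctrl* 4), turning also without *Srsf10-kd* 2 (0.20) and 3 (0.15), and was 0.30 with limma-voom. *Cox8b* ranged from -0.24 (without *Srsf10-kd* 4) to 2.29 (without *Srsf10-kd* 3), *Atp5b* from -0.066 (without *Ctrl* 2) to 0.0023 (without *Ctrl* 3), and *Cycs* was -0.0085 without *Srsf10-kd* 3. Of genes named beside these, *Uqcrc1* and *Atp5c1* were both -0.03 with the length trend removed.

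Limits remain. The table holds genes and not transcripts, and a fold change per kilobase uses 1 length per gene. Poly(A) selection and reads shared with nuclear copies bear on the mtDNA counts in ways these files cannot separate. RNA levels say nothing of protein or respiration.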
